A study of Bos taurus with 27 samples.

Results

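Complex I of the respiratory chain was followed in the rumen epithelium (RE), the layered lining of the rumen through which short-chain fatty acids are taken up, through its genes named NDUF. These were 44 genes of 14952 gene names on the array, chosen as all non-control probes whose design name begins with NDUF, and each had 1 probe. They comprised 15 NDUFA, 11 NDUFB, 2 NDUFC, 8 NDUFS, 3 NDUFV and 5 NDUFAF genes. The RE of 9 castrated and fistulated Japanese Black bulls, fed a high-grain fattening diet at all stages, was sampled from the ventral sac with a biopsy punch at 14 months (early stage), 21 months (middle stage) and 29 months (late stage). The same 9 cattle gave 1 array per stage, 27 in all, with no group on another diet. The labels number the samples 1 to 9 within each stage. Equal numbers were taken as the same animal, which the labels do not state, and all values by animal rest on this. The first period compares the middle with the early stage, the second period the late with the middle stage, and the total period the late with the early stage. Age and the stage of fattening changed together and cannot be told apart, and the share of grain in the diet rose from the early to the middle stage and then stayed close to that level. A level is the log2 processed intensity of a probe minus the median of its array, so 0 is the median probe, and levels of different probes are not compared with each other.

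Complex I takes electrons from NADH, passes them along a flavin and a chain of iron-sulfur clusters to ubiquinone, and pumps protons across the inner mitochondrial membrane. Its core subunits carry this chemistry, and those of the membrane arm are encoded in the mitochondrial genome. The nuclear NDUF genes encode the core subunits of the matrix arm and the accessory subunits that surround both arms, while the NDUFAF genes encode factors that help to assemble the complex and are absent from the finished enzyme. The RE uses much of its butyrate and other fatty acids as fuel, and oxidation of these delivers NADH to complex I.

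What each probe reads matters for these genes, so parts of the probes the results turn on are shown first. All are 30 of the 60 bases of a probe as deposited in the scanner output, with the position of the whole probe on UMD_3.1. Whether a probe lies in a coding exon or a UTR was not annotated in the sources used here. Of the 44 probes, 6 hold AATAAA, the usual signal for polyadenylation near the 3′ end of a transcript, a share of 13.6% against 9.51% of all probes. The search covered the probe strand alone. These 6 are shown with AATAAA in capitals because other probes of the array gave changes that differed with their place in the transcript, as described below. A match to these letters is a description and not a mapped transcript end.
NDUFA4 (chr4:18973500-18973559, minus strand): tttaccctgatgAATAAAtagcctgaaact
NDUFB7 (chr7:12329685-12329744, plus strand): gaccagtcaagaAATAAAagcctccaggcc
NDUFB8 (chr26:21283417-21283476, minus strand): ttaactttaatgaaatccccAATAAAactt
NDUFB9 (chr14:17132885-17132944, minus strand): cacacttgccctAATAAAataactccacct
NDUFS3 (chr15:78587423-78587482, plus strand): ttacctataattgagtggcctgtaAATAAA
NDUFS5 (chr3:107558705-107558764, minus strand): agagtgtctaaaAATAAAggattgctccat

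Another 5 probes map to more than 60 bases of genome, so they cross at least 1 intron and lie within the spliced transcript. Of these, 4 are shown. NDUFA9, NDUFS6 and NDUFV2 were lower in the first period and NDUFAF2 was higher, by the test described below. Of the 723 such probes of the array well above background on all arrays, 38.0% were higher and 36.0% lower in that period.
NDUFA9 (chr5:105875429-105877164, minus strand): aaagacccggatgccagagggaaaactttt
NDUFS6 (chr20:70987168-70990414, minus strand): tcgtcagaaagaggtgaacgagaactttgc
NDUFV2 (chr24:41869077-41874518, plus strand): ttgatgaactgaaggctggcaaaatcccaa
NDUFAF2 (chr20:18271063-18371776, minus strand): tggagaggacaaactattcgagagaaaaga

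The probes of NDUFS1 and NDUFV1, core subunits that moved in opposite directions, and of NDUFC1 and NDUFA6, the members with the largest falls in the second period among those well above background on all arrays, read as follows.
NDUFS1 (chr2:94896583-94896642, minus strand): tccctggcgctgcttacacagagaagtctg
NDUFV1 (chr29:46114163-46114222, plus strand): tgagcccacggggctggtgtccgtctgtct
NDUFC1 (chr17:18699974-18700033, plus strand): agtcagacacgacctagcaactgaacaact
NDUFA6 (chr5:113572904-113572963, minus strand): ggcttccctagtggctcaaactgcaaagaa

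The array annotation gives no RefSeq or Ensembl transcript for the NDUFC1 and NDUFA6 probes. It gives none for 12 of the 44 probes, or 27.3%, against 6.00% of all probes. They are NDUFA1, NDUFA3, NDUFA4, NDUFA5, NDUFA6, NDUFA7, NDUFA11, NDUFB1, NDUFB2, NDUFB4, NDUFC1 and NDUFC2. The printed stretches of NDUFC1 and NDUFA6 also resemble the tRNA-derived short interspersed repeats that are common in the cattle genome, a likeness taken from general knowledge that was not measured here. Whether the probes without a listed transcript read the gene they are named for was not tested.

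Most members were bright. Of the 44 probes, 35 were called well above background by the scanner software on all 27 arrays, and the median level over members was 5.83 at the early stage. NDUFB1 and NDUFB4, of the membrane arm, were not well above background on any array. NDUFA1 and NDUFA5 reached that mark on 1 array each, and NDUFA11 on 2 early and 2 late arrays, so no fold change is given for these 5 genes. NDUFA3 was well above background on all 9 early and all 9 late arrays and on 1 of 9 middle arrays. The assembly factors NDUFAF1 and NDUFAF4 and the subunit NDUFB2 were so on all early and late arrays and on 6, 7 and 7 middle arrays. NDUFAF5, NDUFAF7 and NDUFAF8 had no probe among the members. No member spot was saturated or marked as an outlier.

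The middle arrays stood apart in ways that touch every result below. The median processed signal was 35.2 to 48.6 on early, 8.22 to 28.7 on middle and 32.2 to 47.0 on late arrays. Each late array lay on a slide without early or middle arrays, so slide and stage cannot be told apart for the second and total periods. In the first period the only link is slide 2, which held the early array of animal 9 and the middle arrays of animals 1 to 7. Probes at different places of 1 transcript gave different changes in some genes. The 4 GAPDH probes that start 176 to 459 bases into the target were lower at the middle than at the early stage by 1.28 to 1.47 on the log2 scale, whereas those at 972 and 989 gave −0.04 and 0.00, and those at 1185 and 1209 were higher by 0.70 and 0.63. For ACTB, the upstream pair changed by −0.74 and −1.14 and the downstream pair by 0.61 and 0.64. The GAPDH downstream minus upstream difference was 3.51 to 3.85 on early, 4.75 to 6.36 on middle and 3.64 to 3.76 on late arrays, so the middle stage did not overlap with the others. For ACTB it was 2.25 to 3.35, 3.78 to 5.10 and 3.39 to 3.74, so all late arrays also lay above all early ones. The pair of OAZ1 probes, at 556 and 1102, gave −1.35 and −1.14 in the first period, a difference of 0.22. The RPL27 probes at 300, 389 and 415 gave −0.36, 0.33 and 0.31. The RPS13 probes at 277 and 431 gave −0.68 and −0.002.

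**Figure D1:**
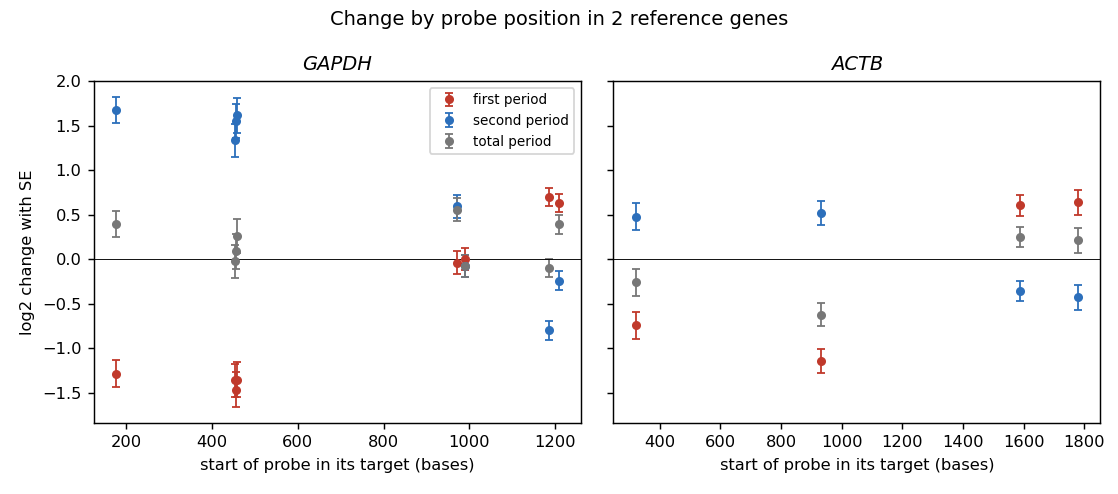
Log2 change (vertical axis, with SE, n = 9 cattle) against the start of the probe in its target in bases (horizontal axis) for 8 GAPDH and 4 ACTB probes in the first, second and total period. In the first period upstream probes lie below 0, down to −1.47 for GAPDH, and the most downstream probes lie above 0, up to 0.70.

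The labeled tissue was checked against markers of cell types. Of 18 stratified epithelium markers measured, 15 were well above background on every array, and KRT5 had mean levels of 9.21, 8.65 and 8.76 at the 3 stages. KRT4 and loricrin were the markers of this list below background on most arrays. In the first period 10 of the 18 were lower and 3 higher, and their summed log2 level was 11.94 to 12.38 on early, 10.17 to 12.32 on middle and 12.23 to 12.49 on late arrays. Smooth muscle markers were higher in 6 of 9, with a summed level of 7.46 to 9.03, 8.03 to 10.23 and 7.62 to 8.39. Red blood cell markers were higher in 4 of 6, with a summed level of 5.29 to 6.10, 6.70 to 7.62 and 5.50 to 6.50. For the fibroblast list the count was 2 higher and 2 lower of 10, for endothelium 2 and 2 of 8, and for leukocytes 6 and 2 of 14. Over all probes 45.3% were higher and 21.2% lower in this period. Among higher calls, 2 of 4 red blood cell and 4 of 6 leukocyte markers were well above background on at most 6 arrays. So was 1 marker each of the fibroblast, endothelium and stratified epithelium lists, and 0 of smooth muscle. The extraction text in the labels speaks of neutrophils and liver. Of 8 hepatocyte and 6 neutrophil markers 1 each was well above background on all arrays. These were APOA2, with mean levels of 5.59 to 5.69, and S100A8, which epithelia also make, with 10.94 to 11.43. The hepatocyte markers APOA1 and TTR were so on 26 and 23 of 27 arrays. The neutrophil markers CSF3R and CXCR2 were so on 22 and 19. For each of them this included all 9 early and all 9 late arrays. ALB and FGA, which define hepatocytes, and ELANE, another marker of the neutrophil list, were not well above background on any array. In the first period 5 of the 8 and 4 of the 6 were called higher, but 4 of the 5 and 3 of the 4 were well above background on at most 6 of 27 arrays. The part of cell composition, RNA quality and slide in the changes below was not tested. In a biopsy, fewer cells of a type and less RNA per cell cannot be told apart.

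In the first period, middle against early stage, 11 of the 44 members were higher and 15 were lower at an adjusted *P* below 0.05 (limma with the animal as a block), a share of 25.0% higher and 34.1% lower. Over all 15008 probes the shares were 45.3% higher and 21.2% lower. The median log2 change was −0.03 over members and 0.33 over all probes. Among the 35 members well above background on all arrays, 8 were higher and 13 lower, or 22.9% and 37.1%, against 34.9% and 26.9% of the 6797 probes that were equally bright, and the medians were −0.01 and 0.08. The median of members minus that of all probes was −0.36, and it was −0.22 with quantile normalization, −0.08 with cyclic loess of bright probes and −0.50 with normexp background correction. Of the 11 higher members, NDUFA5, NDUFB1 and NDUFB4 were not well above background on any early or middle array. At 2-fold or more, 4 members were higher and 5 were lower, against 23.9% and 7.58% of all probes. The 4 higher included NDUFB1 and NDUFB4, and all 4 had probes without a listed transcript. Among the 35 bright members 2 were higher and 4 lower at 2-fold, against 487 and 481 of the 6797 equally bright probes. With quantile normalization, and also with normexp background correction, the split was 8 higher and 18 lower. Without animals 4 and 9, whose middle arrays had the lowest median signal, 6 members were higher and 16 lower.

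Core subunits of the matrix arm were lower in 4 of 7 and higher in 1 of 7, with a median log2 change of −0.70 that ranged from −1.09 to −0.64 over the scalings and background corrections. NDUFS1 encodes the largest of them, which holds several of the iron-sulfur clusters. Its level ranged from 4.34 to 4.82 (median 4.66) on early, from 2.67 to 3.1 (median 2.82) on middle and from 4.38 to 4.89 (median 4.65) on late arrays. All 9 middle arrays lay below all early and late arrays. It was 3.35-fold lower in the first period (log2 −1.74, SE 0.11, adjusted *P* = 1.8e-09, lower in 9 of 9 cattle).

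NDUFV1 encodes the subunit that binds NADH and the flavin. It moved the other way, with levels of 8.10 to 9.07 (median 8.69), 8.42 to 9.81 (median 9.38) and 8.13 to 8.97 (median 8.83), and it was 1.48-fold higher (log2 0.57, SE 0.16, adjusted *P* = 0.0051, 8 of 9 cattle). The stages overlapped, and with normexp the change was 0.06 and did not pass the test. NDUFV2, the iron-sulfur partner of NDUFV1, was 1.63-fold lower (log2 −0.70, SE 0.14). NDUFS8, which carries iron-sulfur clusters on the way to ubiquinone, was 1.74-fold lower (log2 −0.80, SE 0.17). NDUFS3 and NDUFS7 did not pass the test, with log2 changes of 0.09 and 0.13.

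Among 10 accessory subunits of the matrix arm, 3 were higher and 4 lower. NDUFS6, which binds zinc, ranged from 4.90 to 5.40 (median 5.11), 2.75 to 4.60 (median 4.19) and 4.70 to 5.27 (median 4.99), with all middle arrays below the others, and it was 2.32-fold lower (log2 −1.21, SE 0.20, adjusted *P* = 4.3e-05). NDUFA9, at the junction of the arms, was at 4.69 to 5.31 (median 4.98), 3.17 to 4.32 (median 3.84) and 4.56 to 5.00 (median 4.85). It was 2.15-fold lower (log2 −1.11, SE 0.13, adjusted *P* = 1.7e-06), again without overlap.

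NDUFV3, a small subunit beside NDUFV1 and NDUFV2, fell to the same degree on average (2.15-fold, log2 −1.11, SE 0.23, adjusted *P* = 4.2e-04), but its middle arrays spread from 2.26 to 4.88 (median 4.64) against 5.15 to 5.71 (median 5.44) before and 5.30 to 5.80 (median 5.71) after. The lowest of these was the array of animal 4. NDUFAB1, the mitochondrial acyl carrier protein, was at 8.11 to 8.70 (median 8.52) at the early and 6.54 to 8.35 (median 7.80) at the middle stage and was 1.61-fold lower (log2 −0.69, SE 0.17, adjusted *P* = 0.0014), with overlapping stages.

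The higher members of this arm were NDUFA6, NDUFA7 and the dim NDUFA5. NDUFA6, which binds the acyl carrier protein to the complex, had levels of 1.79 to 2.04 (median 1.93) at the early and 2.13 to 3.00 (median 2.47) at the middle stage. It was 1.55-fold higher (log2 0.63, SE 0.10, adjusted *P* = 3.1e-05) in 9 of 9 cattle and without overlap, but with normexp the change was 0.14 and did not pass the test. NDUFA7 was at 0.50 to 1.28 (median 0.81) and 1.58 to 2.54 (median 1.95), 2.17-fold higher (log2 1.12, SE 0.13, adjusted *P* = 9.0e-07).

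Among 20 accessory subunits of the membrane arm, 6 were higher and 6 lower, and the median log2 change was 0.02, or −0.06 with quantile normalization and −0.32 with normexp. NDUFC1 had the largest rise of all members. It was at −0.08 to 0.68 (median 0.14) at the early and 1.44 to 3.52 (median 1.95) at the middle stage, 3.85-fold higher (log2 1.95, SE 0.19, adjusted *P* = 2.5e-07, 9 of 9 cattle), with no overlap. Its partner NDUFC2 was 1.61-fold lower (log2 −0.69, SE 0.18). NDUFA3 had levels of −1.03 to 0.41 (median −0.33) at the early and −3.03 to −1.65 (median −2.30) at the middle stage. Because 1 of 9 middle arrays measured it above background, a bound is given, and the early level was at least 2.33-fold higher. The measured means were −0.32 and −2.29, and limma on the measured levels gave an adjusted *P* of 1.2e-07. The bound itself was not tested. With normexp, where an offset of 50 compresses dim signals, the change was −0.15.

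NDUFA10 was 1.90-fold lower (log2 −0.93, SE 0.16), NDUFB5 was 1.59-fold lower (log2 −0.67, SE 0.14), and NDUFB6 and NDUFB8 fell by 0.48 and 0.39 on the log2 scale. The rises among bright NDUFB genes were small, at log2 0.38 for NDUFB7, 0.31 for NDUFB10 and 0.28 for NDUFB9, and with normexp they were −0.08, −0.30 and −0.29 and did not pass the test. The 6 members whose probe holds AATAAA had a median first-period change of 0.10 and ranged from −0.39 to 0.38, whereas the 29 other bright members had a median of −0.14. The same medians over bright probes of the whole array were 0.18 and 0.05.

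Of 5 assembly factors, NDUFAF2 was 1.48-fold higher (log2 0.56, SE 0.14), a call lost with normexp (0.10), and NDUFAF4, which works with NDUFAF3 on the ubiquinone module, was lower (log2 −0.77, SE 0.16, measured on 7 of 9 middle arrays). NDUFAF1, NDUFAF3 and NDUFAF6 did not pass the test, at −0.05, 0.00 and 0.11. NDUFA4, a protein now placed with cytochrome c oxidase, and its paralog NDUFA4L2 did not pass either, at −0.01 and 0.35.

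The first-period calls depend on how the slide is treated. When the slide entered as a fixed block, 2 members were higher and 1 lower of 44, and 8.36% of all probes were called, against 66.5% without the slide. There NDUFS6 and NDUFB8, lower in the main comparison, were estimated at 0.76 and 0.87 on the log2 scale. The median SE over all probes in that fit was 0.67. On the arrays of slide 2 alone, the estimates of NDUFS6 and NDUFB8 were −0.98 and −0.32. Within slide 2, where 1 early array stands against 7 middle arrays, limma called 0 members and 7 of 15008 probes, and 8 members had an unadjusted *P* below 0.05.

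**Figure D2:**
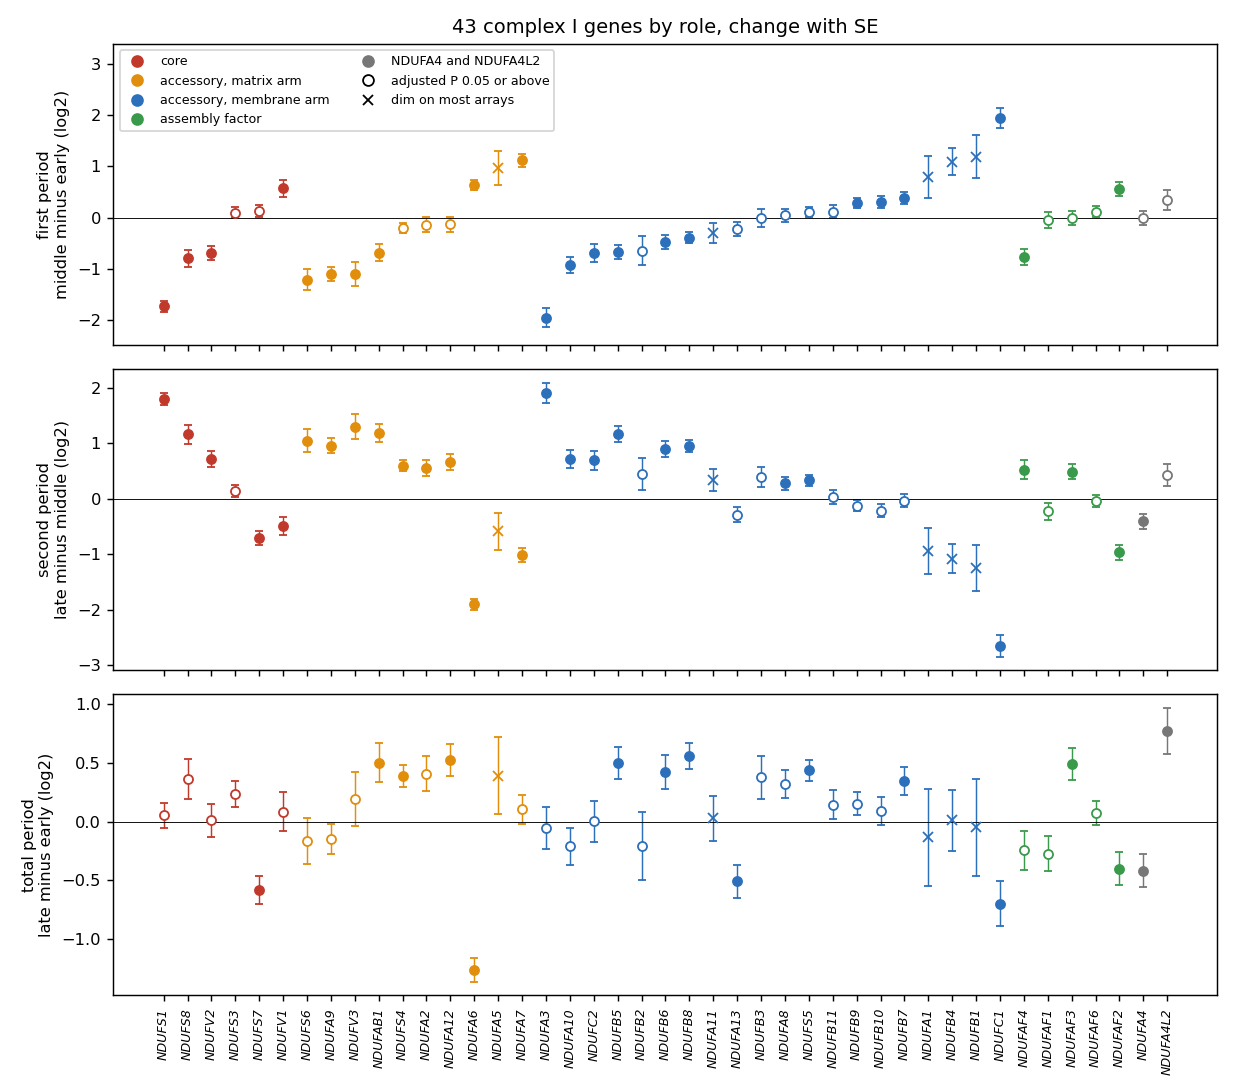
Log2 change with SE (vertical axes, n = 9 cattle) of 43 of the members, grouped by role and ordered within a role by their first-period change, in the first, second and total period. Filled circles passed the test, open circles did not, and crosses are the 5 genes well above background on at most 2 of 9 arrays of any stage. NDUFS1 lies at −1.74, 1.79 and 0.05 and NDUFC1 at 1.95, −2.65 and −0.70.

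**Figure D3:**
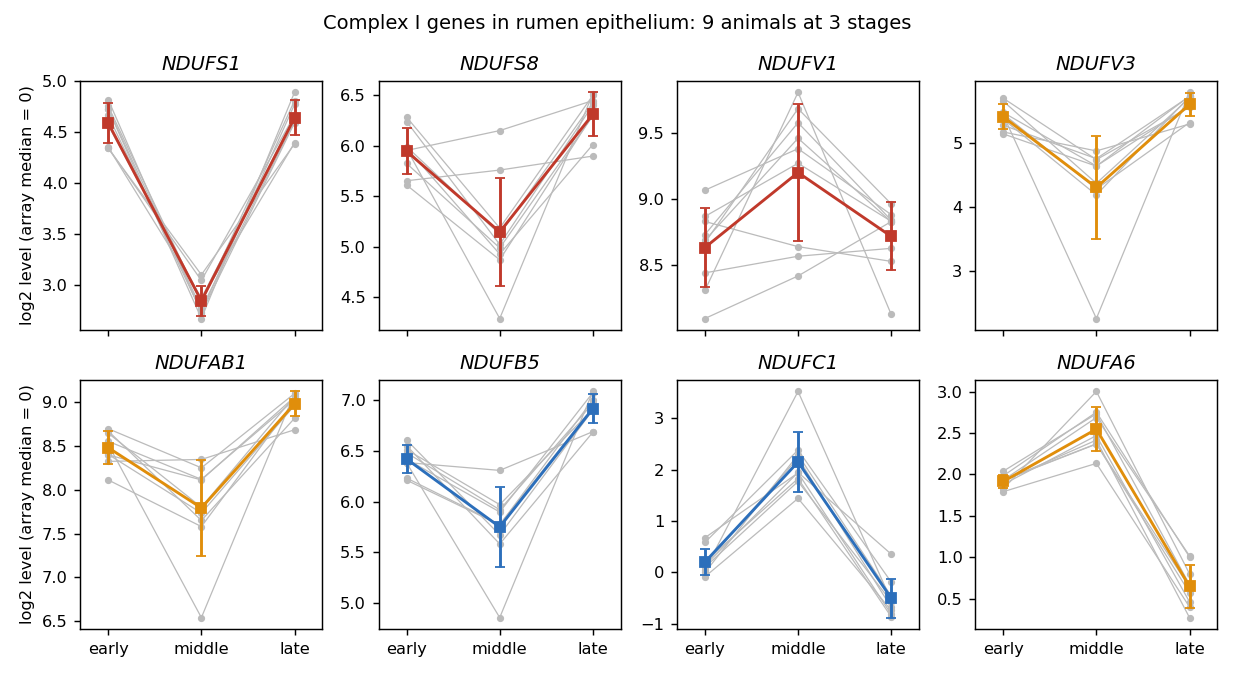
Log2 level relative to the array median (vertical axes) of 8 members at the early, middle and late stage, with a gray line per animal and the mean and SD of 9 cattle in color. The NDUFS1 middle levels of 2.67 to 3.1 lie below all others, and those of NDUFC1, 1.44 to 3.52, lie above all others.

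In the second period, late against middle stage, 21 of 44 members were higher and 9 lower, or 47.7% and 20.5%, against 26.7% and 44.8% of all probes. The median log2 change was 0.36 over members and −0.28 over all probes. Among the 35 bright members 19 were higher and 7 lower, or 54.3% and 20%, against 37.4% and 30.7% of equally bright probes, with medians of 0.42 and 0.09. At 2-fold or more, 7 of the 44 were higher and 5 lower, against 9.92% and 29.2% of all probes. The 5 lower included NDUFB1 and NDUFB4, and all 5 had probes without a listed transcript. Among the 35 bright members 6 were higher and 3 lower at 2-fold, against 750 and 697 of the 6797 equally bright probes. This period shares its middle arrays with the first, so a middle level that is high or low enters both. With 75th percentile scaling, which lowered the median of all probes to −0.45, the split was 19 higher and 16 lower. The median of members minus that of all probes was 0.64, and it was 0.31 with quantile normalization, 0.28 with cyclic loess of bright probes and 0.86 with normexp. With the slide as a random block 12 members were higher and 7 lower, and 50% of all probes were called.

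Of the core subunits 4 were higher and 2 lower. NDUFS1 was 3.47-fold higher (log2 1.79, SE 0.11, adjusted *P* = 2.0e-10, 9 of 9 cattle). NDUFS8 had levels of 4.29 to 6.15 (median 5.02) at the middle and 5.90 to 6.51 (median 6.40) at the late stage, and it was 2.24-fold higher (log2 1.16, SE 0.17, adjusted *P* = 8.9e-06). NDUFV2 was 1.64-fold higher. NDUFS7, which carries the last iron-sulfur cluster before ubiquinone, was 1.63-fold lower (log2 −0.71, SE 0.12, adjusted *P* = 3.6e-05) in 9 of 9 cattle, and NDUFV1 was 1.40-fold lower (log2 −0.48, SE 0.16). With normexp 5 core subunits were higher and 0 lower by limma, with NDUFS7 at −0.02 and NDUFV1 at 0.28, neither past the test.

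In the matrix arm 7 of 10 accessory subunits were higher. NDUFV3 was 2.46-fold higher (log2 1.30, SE 0.23, adjusted *P* = 6.5e-05) and NDUFS6 was 2.07-fold higher (log2 1.05, SE 0.20, adjusted *P* = 1.2e-04). NDUFAB1 reached 8.69 to 9.10 (median 9.03) at the late stage, above all middle arrays, and was 2.28-fold higher (log2 1.19, SE 0.17, adjusted *P* = 4.9e-06). NDUFA9, NDUFA12, NDUFS4 and NDUFA2 were higher by 0.96, 0.66, 0.60 and 0.55 on the log2 scale. The 2 lower members were NDUFA6 and NDUFA7. The late NDUFA6 level of 0.27 to 1.02 (median 0.64) lay below every early and middle array, and the fall was 3.73-fold (log2 −1.90, SE 0.10, adjusted *P* = 3.2e-11, 9 of 9 cattle). NDUFA7 was 2.02-fold lower (log2 −1.02, SE 0.13, adjusted *P* = 1.2e-06), at 0.68 to 1.25 (median 1.02).

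In the membrane arm 8 of 20 were higher and 3 lower, or 6 and 7 with 75th percentile scaling. Of the 3, 2 were NDUFB1 and NDUFB4, which were never well above background. The other was NDUFC1, at −0.86 to 0.36 (median −0.56) at the late stage, and its fall of 6.26-fold was the largest change of any member (log2 −2.65, SE 0.19, adjusted *P* = 2.3e-09). NDUFB5 was at 4.86 to 6.31 (median 5.78) at the middle and 6.68 to 7.09 (median 6.92) at the late stage, with no overlap, 2.24-fold higher (log2 1.17, SE 0.14, adjusted *P* = 6.8e-07). The late NDUFA3 level was at least 2.25-fold above the middle level, with a change of 0.15 under normexp. The adjusted *P* of 5.4e-08 (limma) belongs to the measured levels and not to this bound. NDUFB8 and NDUFB6 were 1.94-fold and 1.87-fold higher. Of the assembly factors, NDUFAF3 and NDUFAF4 were higher by 0.49 and 0.53, and NDUFAF2 was 1.95-fold lower (log2 −0.97, SE 0.14). NDUFA4 was lower (log2 −0.41, SE 0.14), but at 0.23 with normexp, where it did not pass the test.

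Differences between 2 members on the same array do not depend on how whole arrays are scaled. NDUFC1 minus NDUFS1, the member with the largest rise and the bright member with the largest fall in the first period, was −4.38 ± 0.28 (SD, n = 9) on early, −0.70 ± 0.68 on middle and −5.14 ± 0.46 on late arrays, and the change had the same direction in 9 of 9 cattle in both periods. NDUFV1 minus NDUFS1, both core subunits, was 4.05 ± 0.17, 6.36 ± 0.58 and 4.08 ± 0.18. NDUFB7 minus NDUFB5, both of the membrane arm, was 1.49 ± 0.18, 2.54 ± 0.53 and 1.35 ± 0.12. These pairs were chosen after their values were seen and are descriptions. The SD of levels over the 35 bright members within an array was 2.23 to 2.37 on early, 2.07 to 2.31 on middle and 2.39 to 2.59 on late arrays.

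**Figure D4:**
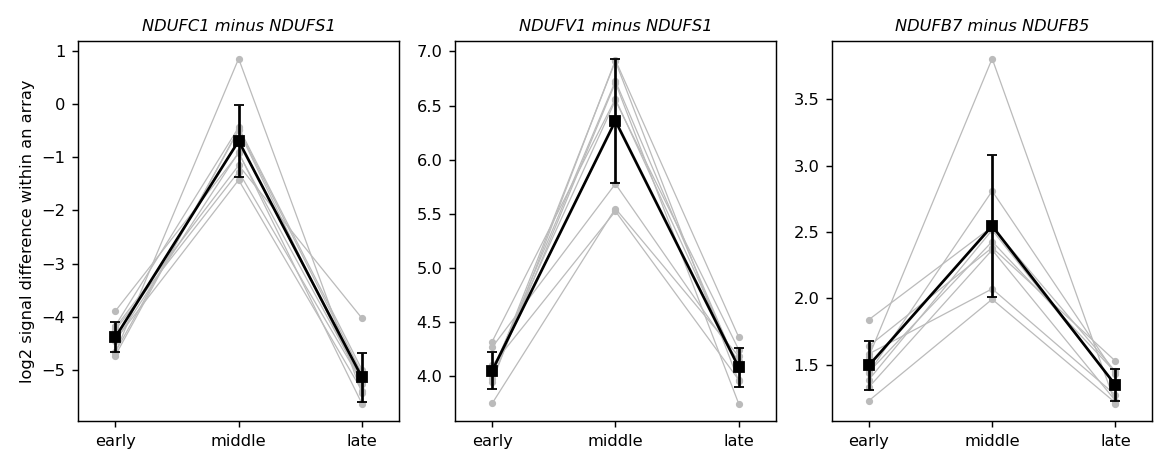
Log2 signal difference between 2 members on the same array (vertical axes) at the 3 stages, with a gray line per animal and the mean and SD of 9 cattle in black. NDUFV1 minus NDUFS1 rises from 4.05 to 6.36 and returns to 4.08.

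In the total period, late against early stage, 10 members were higher and 6 lower, or 22.7% and 13.6%, against 11% and 9.01% of all probes. The median log2 change was 0.09 over members and 0.03 over all probes, and over bright members and bright probes it was 0.14 and 0.13. Most changes were small: 1 member, NDUFA6, passed the 2-fold threshold, with a fall of 2.41-fold (log2 −1.27, SE 0.10, adjusted *P* = 4.1e-08) in 9 of 9 cattle, against 2.85% of all probes at least 2-fold lower and 1.31% at least 2-fold higher. The split was 7 higher and 6 lower with 75th percentile scaling, 5 and 5 with quantile normalization, 6 and 8 with cyclic loess of bright probes, and 1 and 2 with normexp background correction. With the slide as a random block limma called 0 members higher and 1 lower, and 6 members had an unadjusted *P* below 0.05, while 1.65% of all probes were called. Without animal 2 the count of lower members was 3.

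Of the 10 higher members 8 were accessory subunits. NDUFB8 was at 7.55 to 7.98 (median 7.84) at the early and 8.13 to 8.59 (median 8.35) at the late stage, 1.47-fold higher in 9 of 9 cattle with no overlap (log2 0.56, SE 0.11, adjusted *P* = 0.0017). NDUFA12, which takes the place of NDUFAF2 in the finished enzyme, was at 6.76 to 7.34 and 7.38 to 7.92, also without overlap (log2 0.53, SE 0.14, adjusted *P* = 0.011). NDUFAF2 itself was lower (log2 −0.40, SE 0.14, adjusted *P* = 0.047). NDUFAB1 and NDUFB5 were both higher by 0.50, NDUFAF3 by 0.49, NDUFS5 by 0.44, NDUFB6 by 0.42, NDUFS4 by 0.39 and NDUFB7 by 0.35. Leaving out any of 6 animals in turn (1, 3, 5, 6, 7 or 8) ended the call of NDUFAB1. The calls of NDUFAB1, NDUFB6 and NDUFB7 were also lost with 75th percentile scaling, quantile normalization and cyclic loess, that of NDUFS4 with quantile normalization and cyclic loess, and those of NDUFB5 and NDUFAF2 with quantile normalization. With normexp the calls that stayed were NDUFA4L2, NDUFA6 and NDUFC1.

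Of the 7 core subunits 1, NDUFS7, passed the test. It was lower in 9 of 9 cattle (log2 −0.58, SE 0.12, adjusted *P* = 0.0018), while the other 6 core subunits changed by 0.01 to 0.37 and did not pass the test. NDUFC1 was 1.63-fold lower (log2 −0.70, SE 0.19, adjusted *P* = 0.015), a call lost without animal 2. NDUFA13, a membrane-arm subunit also known as GRIM-19, was lower (log2 −0.51, SE 0.14, adjusted *P* = 0.014) in 9 of 9 cattle, and NDUFA4 was lower by 0.42. NDUFA4L2, which hypoxia induces in many cells, had levels of 0.95 to 2.27 (median 1.68) at the early and 1.86 to 3.16 (median 2.55) at the late stage and showed the largest rise of the total period (1.71-fold, log2 0.77, SE 0.20, adjusted *P* = 0.0091), with overlapping stages and 7 of 9 cattle higher.

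The description changes with the probes admitted. Among the 32 members whose probe lists a RefSeq or Ensembl transcript, 5 were higher and 13 lower in the first period, 19 higher and 3 lower in the second, and 10 higher and 3 lower in the total period. Among the 12 without one, the counts were 6 and 2 in the first and 2 and 6 in the second period. As shares, the 12 had 50% higher and 16.7% lower in the first period and 16.7% and 50% in the second. All 900 probes of the array without a transcript had 62.1% and 11.6%, then 16% and 59.6%, so these members lay near that background. The 14108 probes with a transcript had 44.2% and 21.9% in the first and 27.4% and 43.8% in the second period. In the total period they had 10.9% and 8.82%. Over all probes of the array the median first-period change was 0.30 with a listed transcript and 0.74 without one.

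Genes that serve complex I beside the NDUF members were counted from other lists. Of 14 genes of iron-sulfur cluster assembly, 1 was higher and 7 lower in the first period, 10 were higher in the second, and 4 were higher and 1 lower in the total period, with ISCA1, a late-acting assembly factor, at log2 −1.55, 1.95 and 0.40. Of 11 complex I assembly factors with other names, 1 was higher and 6 lower in the first, 5 higher and 1 lower in the second, and 2 higher and 3 lower in the total period. CHCHD4, which oxidizes imported proteins of the intermembrane space, was the higher one at first (log2 0.71, SE 0.10). Of 6 mitochondrially encoded subunits measured, 1 was higher and 2 lower in the first and 2 higher and 1 lower in the second period. The 48 nuclear genes named for complexes II to V had 11 higher and 14 lower in the first, 22 and 11 in the second and 9 and 3 in the total period, with medians of −0.02, 0.22 and 0.12. Of the 11 higher in the first period 6, and of the 11 lower in the second 5, were well above background on at most 6 of 27 arrays. These 48 were picked by name and include DMAC2, DMAC2L and ATP5IF1, which are not subunits. DMAC2 and DMAC2L were among those higher in the second and total periods, and DMAC2 is also counted with the assembly factors above. The shares over all probes, given above with each period, apply to these lists too.

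Of 16 regulators of mitochondrial genes, 5 were bright on all 27 arrays, and 5 were higher and 2 lower in the first period and 3 higher and 8 lower in the second. Of the 5 higher 3, and of the 8 lower 4, were well above background on at most 6 of 27 arrays. Over all probes 45.3% were higher and 21.2% lower in the first period, and 26.7% and 44.8% in the second. PPARGC1A, a coactivator of mitochondrial biogenesis, was not well above background on any array. NRF1 and GABPA, which bind promoters of respiratory genes, changed by 0.03 and 0.02 in the first period and did not pass the test. ESRRA, a nuclear receptor that acts with PPARGC1A, was lower in the first period (log2 −0.31, SE 0.11, adjusted *P* = 0.014), and TFAM, which packages and transcribes mitochondrial DNA, was higher (log2 0.38, SE 0.12, adjusted *P* = 0.011) and then lower (log2 −0.36, SE 0.12, adjusted *P* = 0.014).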

How the data were processed

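RE RNA from 9 cattle at 3 stages was labeled with cyanine 3 and hybridized to 27 arrays of 1 color. The deposited intensity values came from the authors' run of Agilent Feature Extraction (9.5 in the submitters' processing notes and 11.0.1.1 in the file headers), which subtracts local background. The authors also deposited log2 values, used as an alternative. The other columns deposited by the authors are 0 or 1 marks for spots well above background, saturated or outlying.

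In R 4.3.3 with limma 3.58.1, each array's median log2 processed signal was subtracted, outlier spots were left missing and spots of a probe were averaged. Stage and animal entered 1 fit, and *P* values were adjusted by Benjamini-Hochberg over 15008 probes (thresholds 0.05 and 2-fold). Deviations of arrays with the same sample number had a mean correlation of 0.158 (range −0.15 to 0.46), against −0.020 between numbers. On simulated data 70% and 71% of 200 probes changed by 1 on the log2 scale were recovered in the first and second period. Of the calls there 3.45% and 7.79% were false. The simulation changed 200 of 15008 probes and held no slide or dim-array effect. On the real arrays 66.5% and 71.5% of probes were called, so these rates need not hold for them.

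The members, roles and lists were chosen with earlier results of these data known. Full values were given for members called at 2-fold or more in any period. All 44 members had a current NDUF symbol in the reference gene table. In a bound, a dim array counted as the higher of the member's own level and the lowest level among its probes well above background. Alternatives are given at the end. Promoters and proteins were not analysed here. The values of 1 member are not reported here, and counts and medians over members include it. Array number and signal over background, not read depth, limit precision.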

Additional observations from a re-analysis of the deposited data

Results flagged for a closer look

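Each member's level was searched at each stage for an animal far from the other 8, by the gap to its nearest neighbor over the range of the 9. Of 132 combinations of gene and stage 20 were so marked, and chance marks about 1 in 20. The middle array of animal 4, which had the lowest median signal of all arrays (8.22) and the largest GAPDH downstream minus upstream difference (6.36), accounted for 10 of them. It was low for NDUFA10 (3.03, others 4.07 to 5.13), NDUFA2 (6.42), NDUFA4 (4.23), NDUFAB1 (6.54), NDUFB5 (4.86), NDUFB6 (5.36), NDUFC2 (4.94), NDUFV2 (5.63) and NDUFV3 (2.26, others 4.19 to 4.88). It was high for NDUFC1 (3.52, others 1.44 to 2.38). Without animal 4, 25 members were called in the first period, against 26 with all animals.

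At the middle stage NDUFB10 was high in animal 9 (8.38) and NDUFB2 low in animal 8 (−2.20, not well above background). At the early stage NDUFA12 (6.76) and NDUFAF1 (−1.88) were low in animal 6, NDUFB10 (7.05) was low and NDUFA11 (−1.95) high in animal 9, and NDUFB4 was high in animal 2 (−3.43, not well above background). At the late stage NDUFAF4 was high in animal 5 (0.47), NDUFB11 was low in animal 9 (7.08), and NDUFB4 was high in animal 9 (−3.25, not well above background).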

How the results depend on the processing

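The arrays were paired by sample number because the same animals were sampled at each stage, on the assumption that equal numbers are the same animal. Without the replicate block the counts of members higher and lower were 11 and 16 in the first, 20 and 10 in the second and 9 and 5 in the total period, so the block changed no count by over 1.5 times. Leaving out each animal in turn gave 9 to 12 higher and 15 to 17 lower in the first, 20 to 23 and 9 to 10 in the second and 7 to 11 and 3 to 6 in the total period, with medians of −0.12 to 0.05, 0.31 to 0.41 and 0.07 to 0.13. The 3 lower were without animal 2. Of 225 comparisons of counts and medians with an alternative, 201 stayed within 1.5 times or 1 SD. The second period had 16 lower members with 75th percentile scaling and also with the values of the series matrix. In the total period 5 were higher with quantile normalization and 6 with cyclic loess. With normexp the medians were −0.37, 0.74 and 0.26, and 1 was higher and 2 lower in the total period. With the slide as a random block 12 were higher in the second period, and 0 higher and 1 lower in the total period. With the slide as a fixed block 2 were higher and 1 lower in the first period, with a median of 0.23. Within slide 2 counts were 0 and 0. The methods' paired test, adjusted by Benjamini-Hochberg, gave 8 and 16, 20 and 6, and 15 and 8.

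Chosen after seeing the data, a fixed slide block with the arrays of 2 stages gave 0 higher and 0 lower in the first period, with 4 members at an unadjusted *P* below 0.05. Without animals 4 and 9, whose middle arrays were dimmest, 6 were higher in that period. Among members whose probe lists a transcript, 5 were higher in the first, 3 lower in the second and 3 lower in the total period. NDUFS6 turned to 0.76 and 0.63 in the first period under the 2 fixed slide blocks, where the median SE over all probes was 0.67 and 0.77. NDUFB4, never above background, turned to −0.0040 and 0.18 with quantile normalization in the first and second period. Values of single members were compared only for the called changes of the 13 members called at 2-fold or more in any period. Calls of the other members are not in this count. Of these 659 values, 591 kept their call, 64 lost it and the 4 above turned. With outlier spots kept all 30 stayed, but no member spot was marked as an outlier. Members by current symbol and all probes of the members are the same 44 probes, so neither alternative could change the counts of the main comparison. The dim filter and cyclic loess left out dim members. Slide blocks were not possible for the second and total periods beyond the random block. The cause was not tested in any of these cases.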
